A study of Mus musculus with 108 samples.

Results

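Bhmt, Bhmt2, Mat1a, Gnmt, Ahcy, Cbs, Cth, Pemt and Dmgdh encode enzymes that make, use and recycle methionine, homocysteine and betaine. These 9 genes, of 55416 in the count table, were chosen by name, with earlier genotype and tissue differences of the same libraries known, above all those of liver against kidney. The values that chose them are not recorded gene by gene. Differences between genotypes and between tissues are therefore given as a description. Their p-values come from fits across all genes and say where a member stands among them. They are no independent evidence for the members. Messenger RNA came from 3 tissues, the liver, the kidney and WAT (white adipose tissue). All mice were labelled as C57BL/J males, 8 to 12 weeks old, untreated and freely fed, under 12 h of light and 12 h of dark. Mice were labelled Bmal1-flox, the control whose sample titles read WT, or Bmal1-iKO, both written here without the prefix. Bmal1 is a transcription factor of the circadian clock, and the series title asks how the clock of the intestine shapes rhythmic liver metabolism. The labels do not name the cells in which Bmal1 was deleted, what drives the deletion, or whether an allele is shared by both groups. Tissue was taken at ZT2, ZT6, ZT10, ZT14, ZT18 and ZT22, where ZT, zeitgeber time, counts the hours since the lights came on. Each genotype and time had 3 libraries, which gave 36 for each tissue.

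Methionine is activated to S-adenosylmethionine, the donor of most methyl groups in the cell. After the methyl group is given away, S-adenosylhomocysteine remains and is split to homocysteine. Homocysteine is methylated back to methionine, with folate or with betaine as the donor, or is passed on to cysteine. Liver is the main site of this cycle, and kidney takes up and handles homocysteine and betaine as well.

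Total counts ran from 13875600 to 24414800 per library. Defining markers matched the labels of liver and kidney, and those of WAT varied widely. Alb, the hepatocyte albumin, was at 33472 CPM (the count relative to library size, scaled by TMM over all libraries) or more in liver and at most 25.2 CPM in kidney. Slc34a1, a proximal tubule transporter, was at 818 CPM or more in kidney, while Adipoq, an adipocyte hormone, spanned 5.66 to 2878 CPM in WAT. Summed adipocyte markers were lowest in WAT iKO ZT10 number 1, at 169 CPM, which is below the highest kidney library (622 CPM). In 11 of the 36 liver libraries, 9 of them iKO, mean log2 CPM of 12 cell cycle genes was 3.51 to 4.27, against 0.08 to 1.5 in the other 25. These were flox ZT6 number 1, flox ZT22 number 1, iKO numbers 1 and 2 at ZT6, ZT14 and ZT18, and all 3 iKO numbers at ZT22. Summed interferon-stimulated genes were also higher in these 11 numbers than in the other 25, in liver (1141 to 3488 against 148 to 663 CPM) and in kidney (411 to 2507 against 59.3 to 388 CPM). Summed macrophage markers in liver were 3599 to 6907 CPM in the 11 and 147 to 1837 CPM in the 25. In 2 iKO numbers, ZT18 number 1 and ZT22 number 3, the female-specific RNA Xist was high in liver although all mice were labelled male. For the 9 genes, calls in liver and in kidney that changed without these numbers are given. Other genes of the pathway are given with all libraries only. Averages without the 11 numbers leave out ZT22, where every iKO number is one of them. Whether libraries of a group stem from different animals is not in the labels, so the p-values refer only to the spread among these samples, some of which may be technical.

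Of the 9 genes, 3 lie together on mouse chromosome 13 (positions of GENCODE M21, build GRCm38). Bhmt spans chr13:93616675-93637961 and Bhmt2 chr13:93655720-93674302, both on the minus strand. Dmgdh starts on the plus strand 130 bases beyond the start of Bhmt2 and spans chr13:93674433-93752833. The whole stretch between these divergent starts, on the plus strand at chr13:93674303-93674432, is shown because Bhmt2 and Dmgdh varied together over kidney libraries more closely than either did with their neighbour Bhmt. Bases before the GENCODE start of Bhmt, on the minus strand at chr13:93637962-93638008, are shown because the gene differed between genotypes in kidney. Capitals there mark a match to the element bound by REV-ERB and ROR receptors of the clock (RORE), searched as an A, any 2 bases and then TAGGTCA. Both sequences are 5′ to 3′ from RefSeq windows of GRCm38.p6.
Between the starts of Bhmt2 and Dmgdh: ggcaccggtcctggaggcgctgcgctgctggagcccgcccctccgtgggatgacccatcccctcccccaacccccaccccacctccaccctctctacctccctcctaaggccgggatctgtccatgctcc
Before the start of Bhmt: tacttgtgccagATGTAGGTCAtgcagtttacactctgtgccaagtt
The 130 bases between Bhmt2 and Dmgdh are 70.8% G and C and hold 6 CpG. The shorter stretch of 47 bases before Bhmt is 44.7% G and C and holds none. Windows of 300 bases (250 before and 50 after the RefSeq start) were available for 7 of the 9 genes, all but Mat1a and Cth. They were searched on both strands for CACGTG (E-box), TTATGNAA (D-box) and the RORE, which do not overlap here and are held by 7.15%, 3.38% and 0.7% of all 32851 windows. The matches were the printed one of Bhmt, at -238 from its RefSeq start, and 1 CACGTG in the window of Cbs, at -229. The RefSeq start of Bhmt lies further inside the gene than its GENCODE start, at which the printed bases end. A match is a run of letters and shows no binding. The whole windows of Bhmt, Bhmt2 and Dmgdh were 48.0%, 73.7% and 68.0% G and C and held 8, 26 and 25 CpG. The median over all windows was 52.7% G and C.

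All 9 genes were highest in liver. Mat1a, the S-adenosylmethionine synthetase of adult liver (chr14:41105035-41124412, plus strand), had a lowest, median and highest level of 1920, 4698 and 11140 CPM over the 36 liver libraries. In kidney it was at 0 in 17 of 36 libraries and reached at most 50 counts (1.97 CPM). Bhmt, which moves a methyl group from betaine to homocysteine, was at 631, 6209 and 29517 CPM in liver and 1.35, 7.02 and 99.6 CPM in kidney. The 2 tissues did not overlap for either gene. Pemt, which methylates phosphatidylethanolamine to phosphatidylcholine (chr11:59970614-60046489, minus strand), was at 58.0, 553 and 815 CPM in liver and 0.403, 1.45 and 2.37 CPM in kidney. Gnmt, which methylates glycine to sarcosine (chr17:46725664-46729168, minus strand), was at 68.0, 872 and 4019 CPM in liver and 5.64, 22.4 and 45.0 CPM in kidney. These 4 genes stood furthest apart, with liver minus kidney differences of median log2(CPM + 0.5) of 13.1 for Mat1a, 9.69 for Bhmt, 8.15 for Pemt and 5.25 for Gnmt. Among 22789 genes, 689 (3.02%) differed in this direction by more than 3. As these are bulk tissues, more cells of a type and more RNA per cell cannot be told apart.

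**Figure D1:**
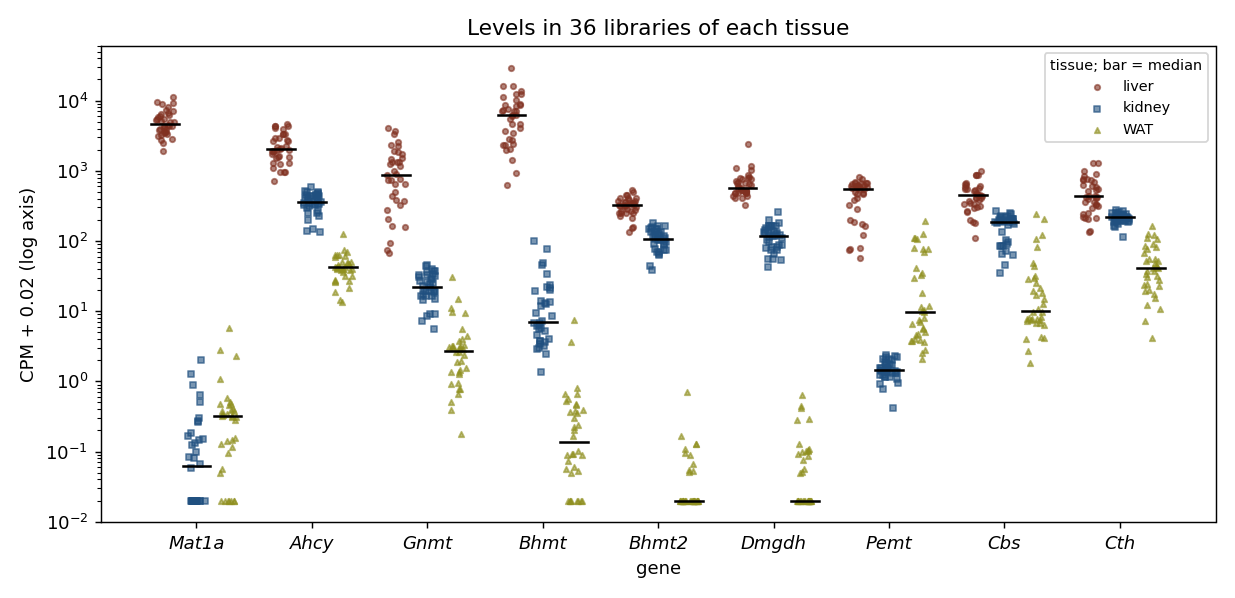
CPM plus 0.02 on a log axis of the 9 genes in each of 36 liver, 36 kidney and 36 WAT libraries, where points are libraries and bars medians. Medians of Mat1a, Bhmt, Pemt and Gnmt are far lower in kidney than in liver, while those of Bhmt2, Dmgdh, Cbs, Cth and Ahcy lie closer together.

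The other 5 genes were well expressed in kidney too. Ahcy, which splits S-adenosylhomocysteine (chr2:155059310-155074497, minus strand), was at 704, 2021 and 4637 CPM in liver and 135, 358 and 593 CPM in kidney. Dmgdh, which takes a methyl group off the dimethylglycine that Bhmt leaves, was at 325, 570 and 2435 CPM in liver and 42.1, 119 and 258 CPM in kidney. Bhmt2, a relative of Bhmt that uses S-methylmethionine, was at 132, 323 and 528 CPM in liver and 38.6, 107.8 and 179 CPM in kidney. The ranges of Dmgdh did not overlap between the tissues and those of Bhmt2 did. Cbs, which joins homocysteine and serine (chr17:31608894-31637238, minus strand), was at 111, 446 and 1005 CPM in liver and 34.9, 187 and 271 CPM in kidney. Cth, which releases cysteine from the product (chr3:157894248-157925077, minus strand), was at 135, 433 and 1297 CPM in liver and 115, 216 and 275 CPM in kidney. Both pairs of ranges overlapped. Liver minus kidney log2 differences were 2.49 for Ahcy, 2.26 for Dmgdh, 1.58 for Bhmt2, 1.25 for Cbs and 1.0 for Cth. Without TMM scaling they were smaller, for example 0.79 for Bhmt2, 0.43 for Cbs and 0.37 for Cth, and liver stayed the higher tissue for all 9 genes under the 3 scalings run.

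Compared per kilobase of the gene length in the table, the order of median levels differed between tissues. In liver it was Mat1a (1355 RPKM, which is CPM per kilobase), Bhmt (1078), Gnmt (723), Ahcy (720), Pemt (263), Dmgdh (167), Cth (155), Bhmt2 (131) and Cbs (59.6). In kidney it was Ahcy (128 RPKM), Cth (77.4), Bhmt2 (43.7), Dmgdh (34.8), Cbs (25.02), Gnmt (18.6), Bhmt (1.22), Pemt (0.687) and Mat1a (0.0124). Bhmt thus stood next to the top in liver and among the lowest in kidney. Each gene overlapped its neighbour in these orders over the 36 libraries. In WAT, Ahcy (15.0 RPKM) and Cth (14.7) led, ahead of Pemt (4.67), Gnmt (2.25) and Cbs (1.36), and the medians of the other 4 were below those. Antisense or other genes overlap Ahcy, Bhmt, Cth, Dmgdh and Gnmt in the annotation. Whether reads were counted by strand is not stated, so that reads of such pairs cannot be told apart.

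In kidney, Bhmt was the member that differed between genotypes, with higher levels in iKO. At ZT2 the flox libraries, by number, were at 4.06, 3.13 and 4.51 CPM and the iKO libraries at 77.7, 11.7 and 9.51 CPM. At ZT6 they were at 23.3, 1.35 and 3.60 CPM in flox and 13.3, 99.6 and 21.4 CPM in iKO. The groups of 3 did not overlap at ZT2, while at ZT6 flox number 1, one of the 11 numbers, lay among the iKO libraries. At ZT10 the levels were lowest in iKO, with 2.84, 3.72 and 3.76 CPM in flox and 5.63, 3.34 and 8.65 CPM in iKO. At ZT14 they were 5.65, 6.85 and 2.47 CPM in flox and 7.19, 22.3 and 14.1 CPM in iKO. The groups overlapped at ZT10 and not at ZT14. At ZT18 flox was at 6.12, 13.1 and 5.13 CPM and iKO at 20.01, 33.7 and 45.3 CPM. At ZT22 flox was at 12.5, 6.24 and 2.93 CPM and iKO at 19.3, 6.67 and 48.3 CPM. The groups did not overlap at ZT18 and overlapped at ZT22, so all iKO libraries lay above all flox libraries at 3 of 6 times. How often groups of 3 separate in this way over all genes was not counted, here or for the other members. Over the day, flox had a lowest, median and highest level of 1.35, 4.28 and 23.3 CPM (24 to 606 counts) and iKO of 3.34, 16.7 and 99.6 CPM (67 to 2239 counts). Of the 18 iKO libraries, 17 lay above the flox median and 5 above the highest flox library.

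**Figure D2:**
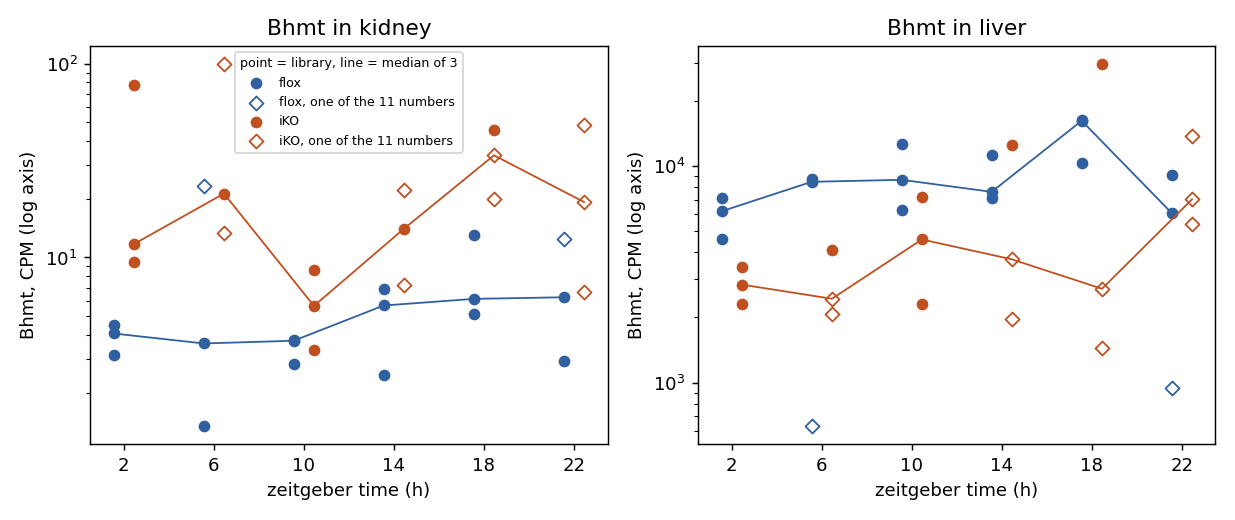
Bhmt in CPM on a log axis against zeitgeber time in kidney and liver, where points are single libraries, lines join medians of 3, and open diamonds are the 11 numbers with high liver cell cycle genes. In kidney the iKO points lie above all flox points at ZT2, ZT14 and ZT18, and in liver they lie below at ZT2.

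Averaged over the 6 times, Bhmt in kidney was higher in iKO, with a log2 difference of 1.90 (SE 0.37, adjusted p = 0.0293, edgeR's quasi-likelihood test over all genes). It was 1 of 29 genes called, at an adjusted p under 0.05, among 17630 tested (0.164%). Without the 11 numbers, which leaves 16 flox and 9 iKO libraries and the 5 times other than ZT22, the difference was 2.19 (SE 0.36, adjusted p = 0.0121), where 0.422% of genes were called. In those libraries Bhmt was at 1.35, 3.91 and 13.1 CPM in flox and 3.34, 11.7 and 77.7 CPM in iKO, with 4 of 9 iKO libraries above the highest flox one. The call was lost without the 2 numbers with high Xist (1.79, adjusted p = 0.0580) and in 10 of the 36 fits that left out 1 library, namely flox ZT2 2, ZT6 3, ZT10 1, ZT14 3, ZT18 1 and ZT22 3 and iKO ZT2 1, ZT6 2, ZT14 2 and ZT22 3. Over the 36 fits the difference ran from 1.64 to 2.22 and the adjusted p from 0.00415 to 0.0608. At single times edgeR called no member in kidney, at any of ZT2, ZT6, ZT10, ZT14 and ZT18 (0% of genes called) or at ZT22 (0.0113%), and nor did DESeq2. At an unadjusted p under 0.05 stood Bhmt at ZT2 (3.07), ZT6 (2.24) and ZT18 (2.03), and Mat1a at ZT6, where flox held 0 to 2 counts and iKO 50, 11 and 1. Of all 17630 genes, 1141 stood there at ZT2, 1096 at ZT6 and 2495 at ZT18. The joint test of whether the difference varies over the day called 0 genes in kidney (0%), and none of the 9 had an unadjusted p under 0.05.

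Levels of hepatocyte markers in kidney differed by gene. Tat, a liver transaminase, was at 0 in 15 of 18 flox and 11 of 18 iKO kidney libraries, and Cps1 of the urea cycle reached at most 2.57 CPM. The sum of 12 hepatocyte markers in kidney, which includes genes that kidney expresses such as Apob and Ttr, was 127 to 355 CPM in flox and 49.7 to 451 CPM in iKO. Its mean log2 level correlated with Bhmt in kidney at r = 0.18 over 36 libraries and 0.54 over the 25 numbers. The same r of Bhmt was 0.51 and -0.13 with interferon-stimulated genes and -0.45 and 0.16 with proximal tubule markers, in 36 and 25 libraries. The part of these cells in the difference was not tested.

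In liver the estimate for Bhmt lay below 0 on average and at 5 of 6 times, and above 0 at ZT22, with no call. At ZT2 the flox livers were at 6178, 4585 and 7092 CPM and the iKO livers at 2835, 3420 and 2307 CPM. At ZT10 flox was at 8629.9, 6239.8 and 12588 CPM and iKO at 4580.1, 2311 and 7228 CPM. These times hold none of the 11 numbers, and iKO was lower without overlap at ZT2 and overlapped flox at ZT10. At ZT18 flox was at 16156, 10277 and 16370 CPM, and iKO at 2713, 1443 and 29517 CPM. The iKO libraries at ZT18 therefore held both a low pair, from the 11 numbers, and the highest Bhmt level of all. At ZT22 flox was at 943, 6059.6 and 9038 CPM and iKO at 7012, 5386 and 13703 CPM (log2 difference 0.69, SE 0.89). These groups overlapped, and all of them but flox numbers 2 and 3 are among the 11. Over the day flox was at 631, 8022 and 16370 CPM and iKO at 1443, 3564 and 29517 CPM. The average difference was -0.54 (SE 0.36, adjusted p = 0.357, edgeR), and -0.29 (SE 0.20, adjusted p = 0.443) without the 11 numbers. Without iKO ZT18 number 3 alone it was called (adjusted p = 0.0476). Over the fits that left out 1 liver library, 208 to 3247 genes were called in all.

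The genotype difference of Bhmt differed between the tissues, with liver minus kidney at -2.43 (log2, SE 0.52, adjusted p = 0.00781, edgeR fit of all 72 liver and kidney libraries). Among 19112 genes 254 were called (1.33%), and Bhmt was the 1 member among them. It stayed called in the other fits run, which left out number 1 of each group in turn but no other single library, with adjusted p from 0.000136 (DESeq2) to 0.0400 (replicate block). Cth was at -0.77 (SE 0.25, adjusted p = 0.0950, edgeR) and was called by DESeq2 (adjusted p = 0.0398). Gnmt was at -0.86 (SE 0.43, adjusted p = 0.306) and Pemt at -0.85 (SE 0.35, adjusted p = 0.203), both without a call. Without the 11 numbers Gnmt was at -0.36 and Pemt turned to 0.0890. Bhmt levels of the same genotype, time and number in the 2 tissues had r = -0.31 over all 36 numbers (-0.58 within flox and 0.08 within iKO) and -0.03 over the 25. The labels do not say that these came from 1 animal.

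**Figure D3:**
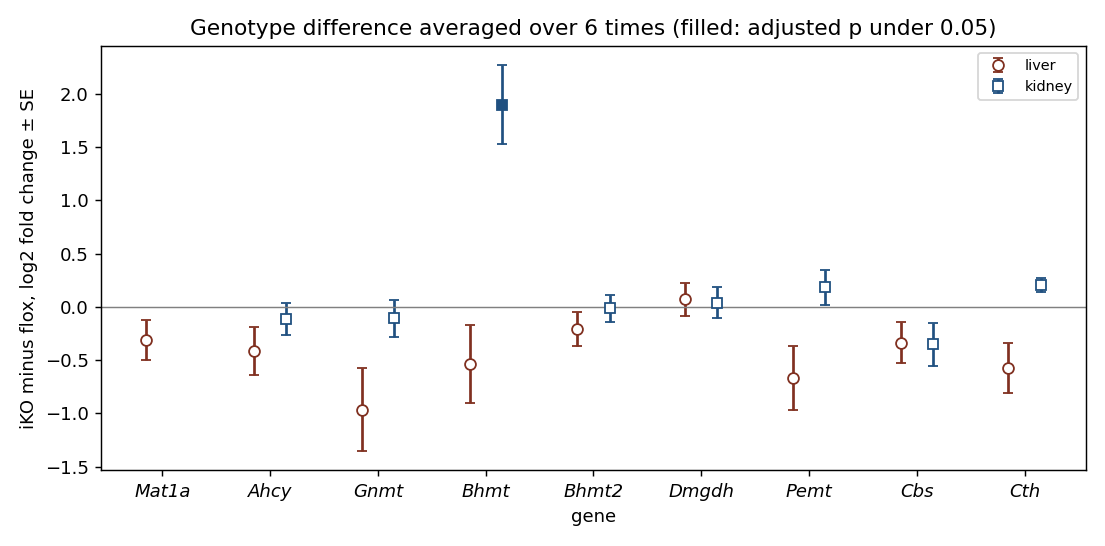
Log2 difference of iKO minus flox averaged over 6 times, with SE, in liver and kidney (18 libraries per genotype and tissue; Mat1a in kidney is left out because groups were at 0). Bhmt in kidney (1.90) is the one filled symbol, and 8 of 9 liver values lie below 0.

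Among the other members in kidney, Cth was nearest to a call, at 0.20 (SE 0.07, adjusted p = 0.229; called by DESeq2). By number its flox levels at ZT2 were 197, 209.6 and 201 CPM and its iKO levels 275, 254 and 243 CPM. At ZT14 they were 200.2, 204 and 218 CPM in flox and 251, 231 and 259 CPM in iKO. The iKO libraries lay above flox at these 2 times and overlapped at the other 4. Cbs was at -0.35 (SE 0.20), and its levels were low in the 11 numbers (34.9, 83.5 and 192 CPM, against 83.6, 202 and 271 CPM in the other 25). Without them Cbs was at -0.0032 (SE 0.11). Dmgdh was at 0.04 (SE 0.15) and, without the 11 numbers, 0.36 (SE 0.14, adjusted p = 0.344). Its iKO libraries lay above flox at ZT2 and ZT10, and Bhmt2 was above at ZT10 and below at ZT6. Ahcy (-0.11, SE 0.15), Gnmt (-0.11, SE 0.17), Bhmt2 (-0.01, SE 0.13) and Pemt (0.18, SE 0.17) were not called, and without the 11 numbers each of these 4 changed sign, still uncalled. The 11 numbers also had lower summed proximal tubule markers in kidney (10712, 14218 and 36794 CPM, against 14958, 28724 and 58871 CPM). Whether they account for the lower Cbs, Ahcy and Dmgdh in those kidneys was not tested.

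In liver, none of the 9 genes was called for the average difference by edgeR (438 of 16582 genes called, 2.64%) or by DESeq2. At an unadjusted p under 0.05 stood 3 of the 9, and 4079 of all 16582 genes. The estimates lay below 0 for 8 of the 9, with a median over the members of -0.41, against 0.00054 over all genes. Gnmt was at -0.96 (SE 0.39, adjusted p = 0.133), Pemt at -0.67 (SE 0.30, adjusted p = 0.168) and Cth at -0.58 (SE 0.24, adjusted p = 0.140). Ahcy was at -0.41 (SE 0.22), Cbs at -0.34 (SE 0.19), Mat1a at -0.31 (SE 0.19), Bhmt2 at -0.21 (SE 0.16) and Dmgdh at 0.07 (SE 0.16). Calls appeared in 4 of the 36 fits that left out 1 library. They were Gnmt, Cth and Bhmt without iKO ZT18 3, Gnmt and Cth without flox ZT6 1 or without flox ZT22 1, and Gnmt and Pemt without iKO ZT6 3 (adjusted p 0.0407 to 0.0486). Over the 36 fits the number of genes called in all ran from 208 to 3247, against 438 with every library.

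Several of these genes differed between the 11 livers that stood apart and the rest. Pemt was at 58.0, 163 and 326 CPM in them and 384, 599 and 815 CPM in the other 25, without overlap. Gnmt was at 68.0, 204 and 638 CPM against 377, 1327 and 4019 CPM, and Ahcy at 704, 1242 and 1998 CPM against 1298, 2658 and 4637 CPM, each with some overlap. Dmgdh was not lower there, at 440.3, 639.9 and 2435 CPM against 325, 567 and 1168 CPM. The sum of hepatocyte markers was 97548 to 208933 CPM in the 11 and 130693 to 263292 CPM in the 25. Leaving out the 11 numbers also drops ZT22 from the average and leaves 1 iKO liver each at ZT6, ZT14 and ZT18. Effects of the lost time and of the lost libraries cannot be told apart in the estimates that follow. Without the 11 numbers no member was called in liver (7.03% of genes were), and the estimates were nearer to 0 for Gnmt (-0.27, SE 0.25), Pemt (-0.15, SE 0.13) and Bhmt (-0.29), above 0 for Mat1a (0.06) and Ahcy (0.02), and below it for Dmgdh (-0.18). Cth kept most of its value, at -0.48 (SE 0.18, adjusted p = 0.127). Its flox levels at ZT2 were 399, 338 and 422 CPM and its iKO levels 254, 245 and 204 CPM, without overlap.

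Single times in liver gave no call among the 9, with 0% of genes called at ZT2, ZT6, ZT10, ZT14 and ZT22 and 0.0362% at ZT18, and DESeq2 called none of the 9 either. Gnmt at ZT18 was at 3655, 3295 and 2269.5 CPM in flox and 326, 204 and 1327 CPM in iKO (log2 difference -2.30, SE 0.99, adjusted p = 0.193). Cbs at ZT18 was at 865, 1005 and 645 CPM in flox and 473, 199.6 and 571 CPM in iKO (-1.02, SE 0.47, adjusted p = 0.223). Neither gene's groups overlapped, and iKO numbers 1 and 2 at ZT18 are among the 11. At ZT22, where all 3 iKO livers are among the 11, Mat1a was at 3377, 5241 and 7315 CPM in flox and 2838, 1920.1 and 3127 CPM in iKO (-1.01, SE 0.46). Dmgdh at ZT22 was at 440.3, 572 and 615 CPM in flox and 789.9, 482 and 2435 CPM in iKO (1.19, SE 0.39). Mat1a did not overlap, and the value of Dmgdh rests on iKO number 3, the highest liver of the series and one of the 2 numbers with high Xist. The joint test over times called 0 genes in liver (0%), by edgeR or DESeq2 for the members, with none of the 9 at an unadjusted p under 0.05.

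**Figure D4:**
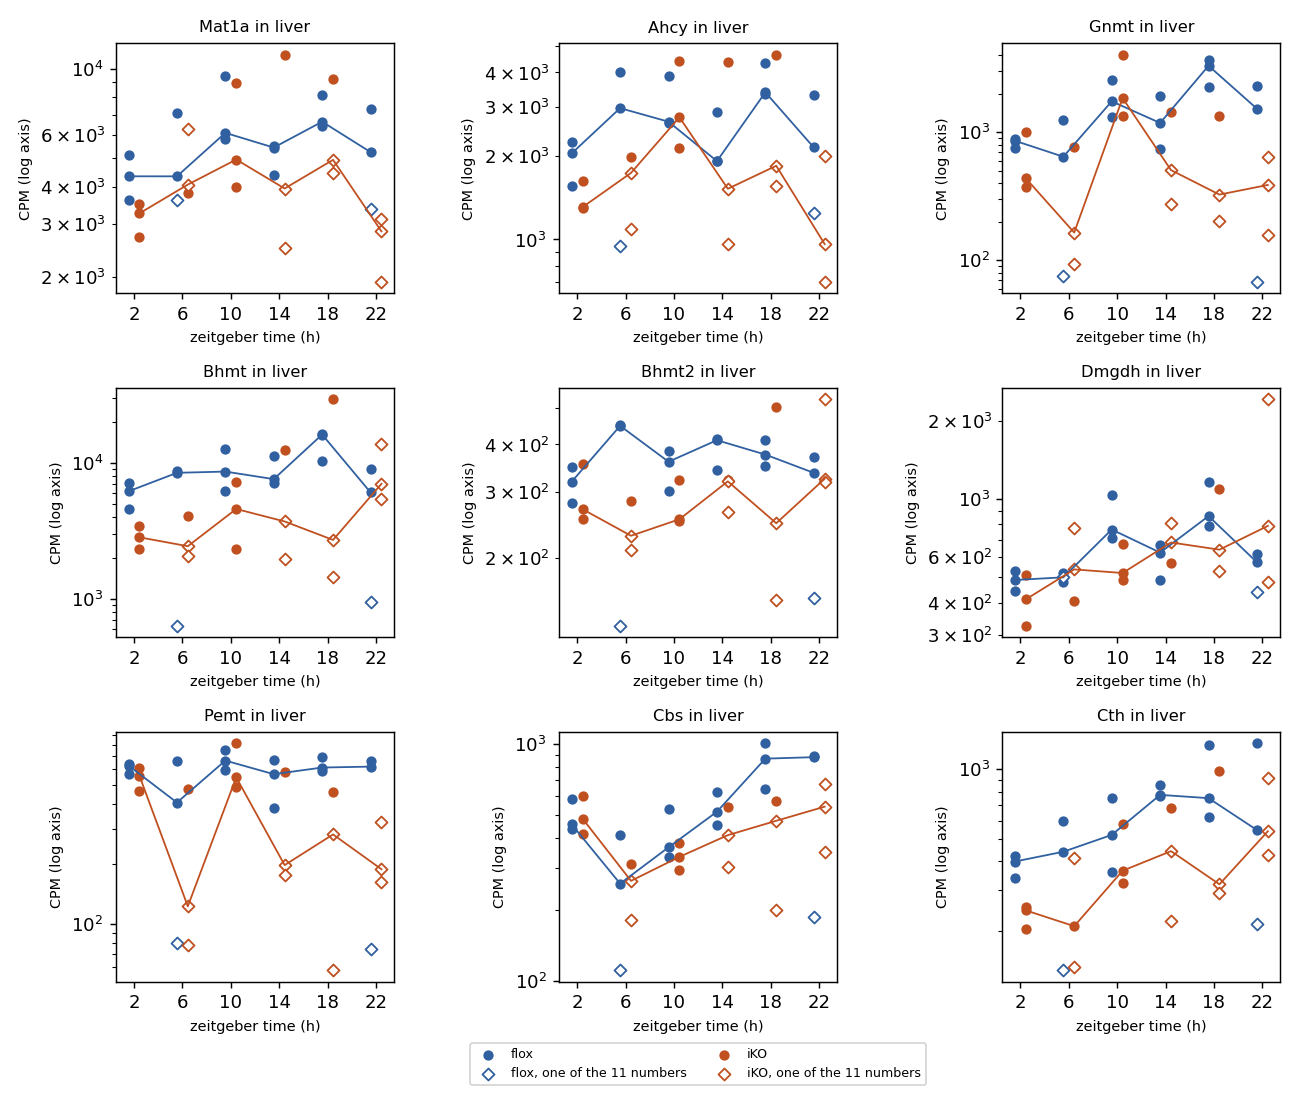
CPM on a log axis of the 9 genes in liver against zeitgeber time, where points are single libraries, lines join medians of 3, and open diamonds are the 11 numbers. For Pemt, all diamonds (58.0 to 326 CPM) lie below all circles (384 to 815 CPM).

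Daily rhythm was tested with a 24 h cosine, whose amplitude is the log2 distance from mean to peak. With all libraries edgeR called no member rhythmic in liver of flox (0.772% of genes called) or of iKO (0.0844%), or in kidney of flox (5.07%) or of iKO (4.22%). At an unadjusted p under 0.05, flox liver had 2 of the 9 and 2464 of 16582 genes, and iKO liver 6 of the 9 and 2015 of 16582. In kidney these were 1 of the 9 and 3924 of 17630 genes in flox, and 1 of the 9 and 3960 of 17630 in iKO. In flox liver Cbs had an amplitude of 0.69 with a peak at 18.8 h (adjusted p = 0.142; called by DESeq2) and Cth of 0.66 at 16.7 h. By number, Cbs in flox was at 111, 257 and 411 CPM at ZT6 and 865, 1005 and 645 CPM at ZT18, without overlap. Gnmt in kidney had an amplitude of 0.65 with a peak at 12.9 h in flox (adjusted p = 0.0718) and of 0.63 at 10.8 h in iKO (adjusted p = 0.0918), and DESeq2 called both. Its flox kidneys were at 18.6, 14.9 and 7.16 CPM at ZT22 and 32.4, 37.3 and 28.5 CPM at ZT10. A change of rhythm between genotypes was called for 0 genes in liver (0%) and in kidney (0%) by edgeR, with none of the 9 having an unadjusted p under 0.05. DESeq2 called no member either. The shares of genes called rhythmic are those of edgeR, and those of DESeq2 are not given, here or below. For the average difference DESeq2 called more genes in all than edgeR.

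Without the 11 numbers more rhythms were called. In flox liver these were Cbs (amplitude 0.69, peak at 19.4 h, adjusted p = 0.000543) and Cth (0.58, peak at 17.3 h, adjusted p = 0.0276), where 8.24% of genes were called. In iKO liver they were Bhmt (1.62, peak at 17.2 h, adjusted p = 0.00489), Cth (1.13, 16.5 h, adjusted p = 0.0139), Mat1a (0.92, 15.5 h, adjusted p = 0.0217) and Ahcy (0.90, 15.1 h, adjusted p = 0.0389), where 0.861% of genes were called. These iKO fits rest on 9 libraries, with 3 each at ZT2 and ZT10, 1 each at ZT6, ZT14 and ZT18 and none at ZT22. The lone livers at ZT14 and ZT18, both number 3, hold the highest Bhmt levels of iKO among the 9 (12535 and 29517 CPM). In liver the change of rhythm was again called for 0 genes (0%), with Bhmt at an adjusted p of 0.173. In flox kidney Gnmt was then called (0.68, 12.8 h, adjusted p = 0.0236, with 8.65% of genes called).

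In WAT most of the 9 genes were scarce, and Bhmt2 did not pass the filter on low counts. Ahcy was at 13.5, 42.1 and 126 CPM and Cth at 4.09, 41.0 and 166 CPM. Cbs spanned 1.79 to 245 CPM and Pemt 2.04 to 193 CPM. Bhmt was at 0, 0.115 and 7.36 CPM, and Bhmt2 and Dmgdh were at 0 in 25 and 19 of 36 libraries. The highest Bhmt of WAT was in iKO ZT18 number 2, where Alb was also highest (104 CPM, against a median of 1.67 CPM over iKO). EdgeR called no gene in WAT for the average difference (0%), its variation over the day (0%), rhythm in flox (0%) or in iKO (0%), or a change of rhythm (0%). At an unadjusted p under 0.05 stood 1, 0, 2, 1 and 3 of the 8 members tested in turn. Of all 21402 genes tested these were 805, 564, 2074, 809 and 674. Cbs had an average difference of -0.96 (SE 0.45, unadjusted p = 0.0428) and DESeq2 called no member for the average. At ZT10 Cth was at 44.3, 126 and 31.1 CPM in flox and 15.4, 7.31 and 17.6 CPM in iKO, without overlap and without a call (-2.32, SE 0.82, adjusted p = 0.840), and iKO number 1 there is the library with the fewest adipocyte markers. Among rhythms in WAT, DESeq2 called Gnmt in flox, with its share of all genes not given.

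Members moved together over libraries to different degrees. These correlations of log2 CPM are within a tissue and over the 25 numbers. Those numbers span both genotypes and several times of day, so differences by genotype and time enter r. In liver the closest pair was Ahcy and Mat1a (r = 0.92), followed by Bhmt and Cth (0.80) and Bhmt and Dmgdh (0.79), while Pemt had r = 0.03 with Bhmt and -0.15 with Bhmt2. In kidney Cbs, Cth, Dmgdh and Bhmt2 correlated with each other at r from 0.74 to 0.86, and Bhmt had at most 0.52 with any other member. Bhmt2 and Dmgdh, whose starts flank the 130 bases printed above, had r = 0.81 in kidney and 0.40 in liver. Bhmt and Bhmt2 had 0.27 in kidney and 0.75 in liver. In kidney each of the flanking genes was closer to a member on another chromosome, Bhmt2 to Cth (0.855) and Dmgdh to Cbs (0.863). The same kidney genes followed proximal tubule markers, with r of 0.81 for Bhmt2, 0.80 for Cth, 0.75 for Ahcy, 0.74 for Cbs and 0.74 for Dmgdh.

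**Figure D5:**
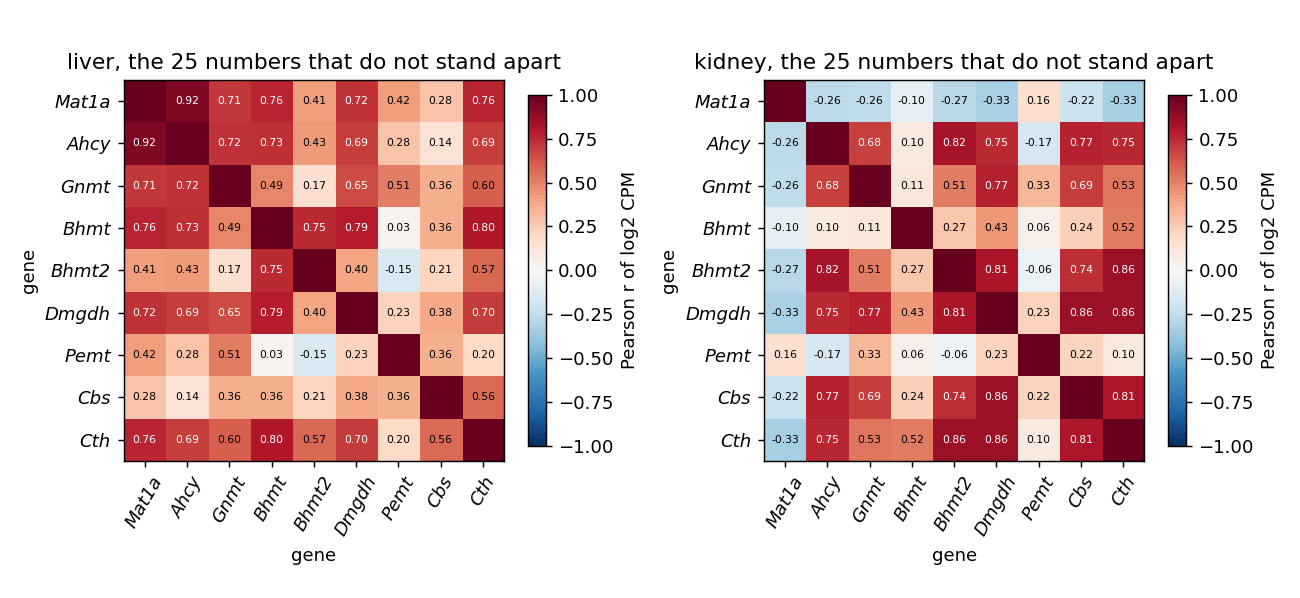
Pearson r of log2 CPM between members over the 25 numbers that do not stand apart, in liver and kidney, with colour from -1 to 1. In kidney the row of Bhmt stays at or below 0.52 while Cbs, Cth, Dmgdh and Bhmt2 reach 0.86 with each other.

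The genes most like each member were picked by r over all 36 libraries of a tissue, among 10621 genes in liver and 11922 in kidney, and r over the 25 numbers is given after it. Bhmt in kidney was most like Sdc4, a surface proteoglycan (0.78 and 0.77), and Slc35f2 (0.76 and 0.80). Bhmt in liver was most like Sult1a1, a sulfotransferase (0.88 and 0.76), and Adk, the adenosine kinase (0.86 and 0.69). Cth in liver was most like Gldc of the glycine cleavage system (0.85 and 0.85) and Ass1 of the urea cycle (0.85 and 0.87), and Cbs like Amt, also of glycine cleavage (0.91 and 0.77). Pemt in liver was most like Asgr2, a hepatocyte receptor, at 0.98 over all libraries and 0.64 over the 25. Gnmt in liver was most like Slc27a5, which activates bile acids (0.94 and 0.84). In kidney Dmgdh was most like Acad10 (0.95 and 0.93), Bhmt2 like the protease Hpn (0.93 and 0.94), Ahcy like Slc37a4, a transporter of the endoplasmic reticulum (0.95 and 0.95), and Gnmt like Egln2 (0.92 and 0.95).

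Other genes of the pathway were counted in 5 lists, with all libraries and not without the 11 numbers. In liver the average difference was called for 3 of their tested genes, each lower in iKO, against 2.64% of all genes. Mthfd2l, a mitochondrial folate enzyme, fell by 0.67 (SE 0.16, adjusted p = 0.0281) and was 1 of 14 folate genes tested (list median -0.42). Slc44a1, a choline transporter, fell by 0.53 (SE 0.13, adjusted p = 0.0275), 1 of 14 genes from choline to glycine (list median -0.34). Ethe1, which oxidizes persulfide in mitochondria, fell by 0.63 (SE 0.17, adjusted p = 0.0468), 1 of 11 genes of cysteine, sulfide and glutathione (list median -0.44). None of 14 other S-adenosylmethionine and methionine genes and none of 8 other methyltransferases was called by edgeR. At an unadjusted p under 0.05 stood 8 and 6 of these, and 11 of the 14 folate genes. From choline to glycine there were 3 of 14, and for cysteine, sulfide and glutathione 3 of 11. Of all 16582 genes, 4079 stood there. In kidney and WAT edgeR called no gene of the 5 lists for the average difference, with list medians from -0.15 to 0.08 in kidney. Rhythm was called in flox liver for Gldc (amplitude 1.05, peak at 16.8 h) and Chka, the choline kinase (1.27, 17.2 h). In kidney it was called for Cept1 in flox and for Mri1 of methionine salvage, Etnk2 and the histamine methyltransferase Hnmt in iKO, against the shares of all genes given above.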

How the data were processed

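The table the authors deposited holds raw counts of reads for each gene, in 36 libraries of each tissue. Per the submitters' processing notes, HISAT2 2.0.4, featureCounts 1.5.0-p3, DESeq2 1.16.1 and GRCm38 (mm10) were used, with settings not stated. Coordinates in the deposited table shared the start of GENCODE M21 genes for 2.88% of identifiers, so positions were taken from GENCODE M21 by identifier. Each tissue was filtered (filterByExpr), scaled (TMM) and tested in edgeR 4.0.16, either by group means (a mean for each combination of genotype and time) or by a 24 h cosine per genotype (glmQLFit, robust). P-values were adjusted by Benjamini-Hochberg over all genes tested, called under 0.05. Printed CPM use TMM over the libraries of all 3 tissues, and tests use TMM within a tissue. Liver and kidney were compared in 1 fit. The fits were tested on simulated data. Alternatives were DESeq2 1.42.0, its size factors, no filter, a replicate block (for the joint fit, liver and kidney paired by number in limma 3.58.1), time as a factor, each library left out, and the groups of libraries named in the report. No 2 libraries of a group agreed within sampling noise (lowest chi-square per degree of freedom 10.5). Named genes are all 9 members, up to 4 called genes per pathway list and up to 3 genes most like a member, of which 1 is not reported here. Members and lists were chosen with earlier results of these data known.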

Additional observations from a re-analysis of the deposited data

Results flagged for a closer look

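The genotype difference of Bhmt, averaged over 6 times, was -2.43 on the log2 scale in liver relative to kidney (-0.54 in liver and 1.90 in kidney), and the test of this difference between tissues called it (adjusted p = 0.00781, edgeR). Of the 18 iKO kidneys, 17 were above the flox median, while iKO livers lay below flox without overlap at ZT2 alone. Members were chosen with liver against kidney in view, so this is a description. Groups of 3 libraries were too small to look for single outlying samples.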

How the results depend on the processing

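Depth left Mat1a and Pemt in kidney and Bhmt, Bhmt2, Dmgdh and Mat1a in WAT with few counts, and the lists of libraries left out were chosen after the data were seen. Members called differed from the values of the report as follows. With DESeq2 there were 2 for the average in kidney (Bhmt and Cth), 2 for liver against kidney (the same pair), and 1 each for rhythm in flox liver (Cbs), flox kidney, iKO kidney and flox WAT (Gnmt in each). Without the 11 numbers there were 2 and 4 for rhythm in flox and iKO liver and 1 in flox kidney. Without the 2 numbers with high Xist there were 0 for the average in kidney and 1 for rhythm in flox kidney. With time as a factor there were 4 in iKO kidney (Bhmt2, Mat1a, Gnmt and Dmgdh), where 40% of all genes were called. Leaving out 1 library gave 0 to 3 members for the average in liver, 0 to 1 for rhythm in flox liver, 0 to 2 at single liver times, 0 to 1 for the average in kidney, 0 to 1 for rhythm in flox kidney, and 1 to 2 for liver against kidney (12 fits, number 1 of each group).

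The number of genes called in all for the average genotype effect in liver was 438, and 1597 with DESeq2, 218 without a filter, 796 with the replicate block, 1199 without the 11 numbers, 159 without the Xist numbers and 208 to 3247 without 1 library. The number of genes called in all for the average genotype effect in kidney was 29, and 203 with DESeq2, 77 without the 11 numbers, 17 without the Xist numbers and 6 to 125 without 1 library. The number of genes called in all for the average genotype effect in WAT was 0, and 25 with DESeq2. Without the 11 numbers the sign turned in liver for Mat1a (0.0555), Ahcy (0.0196) and Dmgdh (-0.176), in kidney for Bhmt2 (0.203), Gnmt (0.0701), Ahcy (0.135) and Pemt (-0.251), and in liver minus kidney for Pemt (0.0890) and Dmgdh (-0.550). Without the Xist numbers it turned for Dmgdh in liver (-0.0660) and in liver minus kidney (-0.155) and for Bhmt2 (0.0699) and Gnmt (0.00922) in kidney. Without 1 library Dmgdh ran from -0.0851 to 0.135 in liver, -0.0472 to 0.0963 in kidney and -0.00705 to 0.150 in liver minus kidney, and Bhmt2 from -0.0815 to 0.0455 in kidney. None of these values was called, and the cause was not tested.

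Deviations from group means of same-numbered flox and iKO libraries correlated at over 0.1 in 6 of 18 liver, 7 of 18 kidney and 11 of 18 WAT pairs. Between kidney and liver of the same genotype, time and number this held for 22 of 36 pairs (median r 0.12). These correlations were not set against a reference, so they do not decide whether numbers pair libraries. With the number as a block, Bhmt in kidney was at 1.95 (adjusted p = 0.0331) and in liver minus kidney called at adjusted p = 0.0400, and no count of members called changed.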
